A study of Homo sapiens with 12 samples.

Results

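Messenger RNA of 7 genes, TXNIP, ARRDC3, ARRDC4, MLXIP, FOXO1, FOXO3 and FOXO4, was followed through hypoxia in 3 human cancer cell lines. The genes were taken by name from a table of 25369 genes, and each of the 7 was found once. They were measured by strand-specific poly(A)+ RNA-seq in RKO (colon carcinoma), A549 (lung adenocarcinoma) and H460 (lung large cell carcinoma) cells. Each line was kept in normoxia or in 1% O2 for 24 h, which gave 6 groups of 2 independent biological replicates and 12 libraries. RKO and A549 were grown in DMEM and H460 in RPMI, with serum and antibiotics in all groups, so line and medium cannot be told apart where H460 is compared with the others. No gene was deleted or overexpressed in any group, and each line is a single established tumour line.

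TXNIP, ARRDC3 and ARRDC4 belong to the alpha-arrestins, adaptor proteins that bring HECT-type ubiquitin ligases of the NEDD4 family to membrane proteins. TXNIP also binds reduced thioredoxin, and it lowers glucose uptake by promoting endocytosis of glucose transporters. Its transcription follows sugar supply: MLXIP (MondoA) and its relative MLXIPL (ChREBP) pair with MLX and bind carbohydrate response elements when glucose 6-phosphate is plentiful, and TXNIP and ARRDC4 are the best known genes under this control. FOXO1, FOXO3 and FOXO4 are forkhead transcription factors that AKT holds in the cytoplasm when growth factors are present, and that promote cell cycle arrest, stress resistance and catabolism when they are nuclear. TXNIP has been described as a gene under FOXO control as well, which links both groups of members.

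On GRCh37, the build of the deposited tables, TXNIP spans positions 145438437 to 145442628 of chromosome 1 and ARRDC3 positions 90664540 to 90679149 of chromosome 5. ARRDC4 lies on chromosome 15 from 98503932 to 98517068 and MLXIP on chromosome 12 from 122516633 to 122631894. FOXO1 lies on chromosome 13 from 41129800 to 41240734, FOXO3 on chromosome 6 from 108881025 to 109005971, and FOXO4 on chromosome X from 70315998 to 70323384. The values below count reads over the annotated exons of each gene, introns excluded.

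The promoters of the 3 arrestin genes are shown because all 3 were called higher in hypoxic RKO cells while they parted in hypoxic H460 cells, as described below. They come from RefSeq windows on GRCh38.p14 that run from 250 bases before to 50 bases after an annotated start. All 7 members matched, with 12 of the 35116 windows. Sequences are printed 5′ to 3′ on the transcribed strand. The core of hypoxia response elements, searched as described below, is left in lower case except within the E box, and capitals mark the other motif matches. In TXNIP, at chr1:145996580-145996829, minus strand, they mark first the FOXO motif GTAAACA and then the carbohydrate response element, searched on both strands as 2 copies of CACGNG with 5 bases of any kind between them. In ARRDC4, at chr15:97960453-97960702, plus strand, they mark the E box CACGTG. In ARRDC3, a stretch of the second window at chr5:91380109-91380137, minus strand, they mark the FOXO motif read from the opposite strand.
TXNIP: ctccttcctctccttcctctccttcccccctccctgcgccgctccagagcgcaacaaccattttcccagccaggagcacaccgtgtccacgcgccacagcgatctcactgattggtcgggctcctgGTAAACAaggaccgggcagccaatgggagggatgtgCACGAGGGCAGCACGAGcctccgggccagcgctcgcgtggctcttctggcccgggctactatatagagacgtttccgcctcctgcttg
ARRDC4: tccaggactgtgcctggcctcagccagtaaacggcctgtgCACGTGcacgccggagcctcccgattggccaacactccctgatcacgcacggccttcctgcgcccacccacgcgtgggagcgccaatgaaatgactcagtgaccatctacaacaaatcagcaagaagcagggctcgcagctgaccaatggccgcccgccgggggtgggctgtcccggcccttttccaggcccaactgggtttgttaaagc
ARRDC3: agcccggcactTGTTTACcacggcgcggc

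The TXNIP element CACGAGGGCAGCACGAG runs from base -88 to base -72 before the start, and this 17-base pattern occurred, on either strand, in 20 of the 35116 windows (0.057%). No window of the other 6 members held these letters. The FOXO motif was found in 3 of the members' 12 windows, beside 3.42% of all windows. The matches were in TXNIP from -124 to -118, ARRDC3 from -29 to -23 and FOXO4 from 24 to 30 after the start. The E box of ARRDC4 runs from -210 to -205 and occurs in 7.26% of windows. The core of hypoxia response elements was searched in 2 spellings. ACGTG, which the E box contains, was found in 4 of the members' 12 windows, beside 21.4% of all windows. Those 4 belong to 3 members (TXNIP, ARRDC4 and FOXO3). GCGTG was found in 7 of the 12 windows, beside 36.5% of all windows, and these belong to 5 members (those 3, MLXIP and FOXO4). A match is a description of letters in a short window, and binding was not measured here.

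Summed counts per library ran from 27350424 to 41757584. Of 7 hypoxia markers, CA9 and NDRG1 among them, 7, 5 and 7 were called higher in RKO, A549 and H460, and their summed CPM (counts scaled to the size of the library, with TMM factors) was 1180 in A549 hypoxia replicate 1 against 2665 in replicate 2. That first library therefore stood apart in its hypoxia markers, and A549 results that rest on it are given without it below. Epithelial keratin and adhesion genes were above 1 CPM for 3 or 4 of 5 markers in every group. Their summed CPM was far lower in RKO, at 186 to 196 in normoxia and 104 to 108 in hypoxia. It ran from 2474 to 3108 in A549 and from 1790 to 2526 in H460. Of 5 colon markers 1 was above 1 CPM in RKO and 4 had no reads in its normoxia libraries. Of 6 lung markers 1 was above 1 CPM in A549, none in H460 normoxia and 1 in H460 hypoxia, so the labelled tissue was weakly represented. The summed CPM of the lung markers in H460 was 0.497 to 0.704 in normoxia and 4.14 to 4.22 in hypoxia. Among 5 stromal and blood markers, COL1A1 was called higher in RKO and A549 and ACTA2 in RKO, and their summed CPM ran from 1.83 to 6.14 in RKO, from 63.1 to 453 in A549 and from 15.4 to 26.4 in H460; their part in the members' results was not tested.

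TXNIP rose about 3-fold in hypoxic RKO cells, stayed at very low levels in A549, and gave no call in H460. In RKO its level was 162 and 88.6 CPM in the normoxia replicates and 478 and 319 CPM in the hypoxia replicates. Both hypoxia libraries lay above both normoxia libraries. The log2 fold change between hypoxia and normoxia was 1.61 ± 0.27 (SE; edgeR adjusted p = 0.00136), a 3.04-fold difference. In bulk RNA, a change in all cells and a change in a share of the cells cannot be told apart.

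In A549, TXNIP had 0.738 and 2.45 CPM in normoxia and 1.29 and 2.04 CPM in hypoxia. These levels rest on 31 and 100 reads against 54 and 70, and the conditions overlapped. The log2 fold change was 0.04, with a 95% interval from -1.16 to 1.25, so a change of 2-fold in either direction lies within it. The 2 normoxia replicates differed 3.32-fold. In H460, TXNIP stood at 156 and 158 CPM in normoxia and at 180 and 95.4 CPM in hypoxia. The 2 hypoxia libraries fell on either side of the normoxia level, and the log2 fold change was -0.21 ± 0.20 (edgeR adjusted p = 0.365). Without H460 hypoxia replicate 1 it was -0.71 (adjusted p = 3.78e-07) and called lower, and without H460 hypoxia replicate 2 it was 0.20, so 1 library decided the sign. With limma on log2 RPKM, values scaled to library size alone, TXNIP in H460 was called lower as well, at -0.63 and -0.62 (adjusted p = 0.037 and 0.0438) with pseudocounts of 0.1 and 1.

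**Figure D1:**
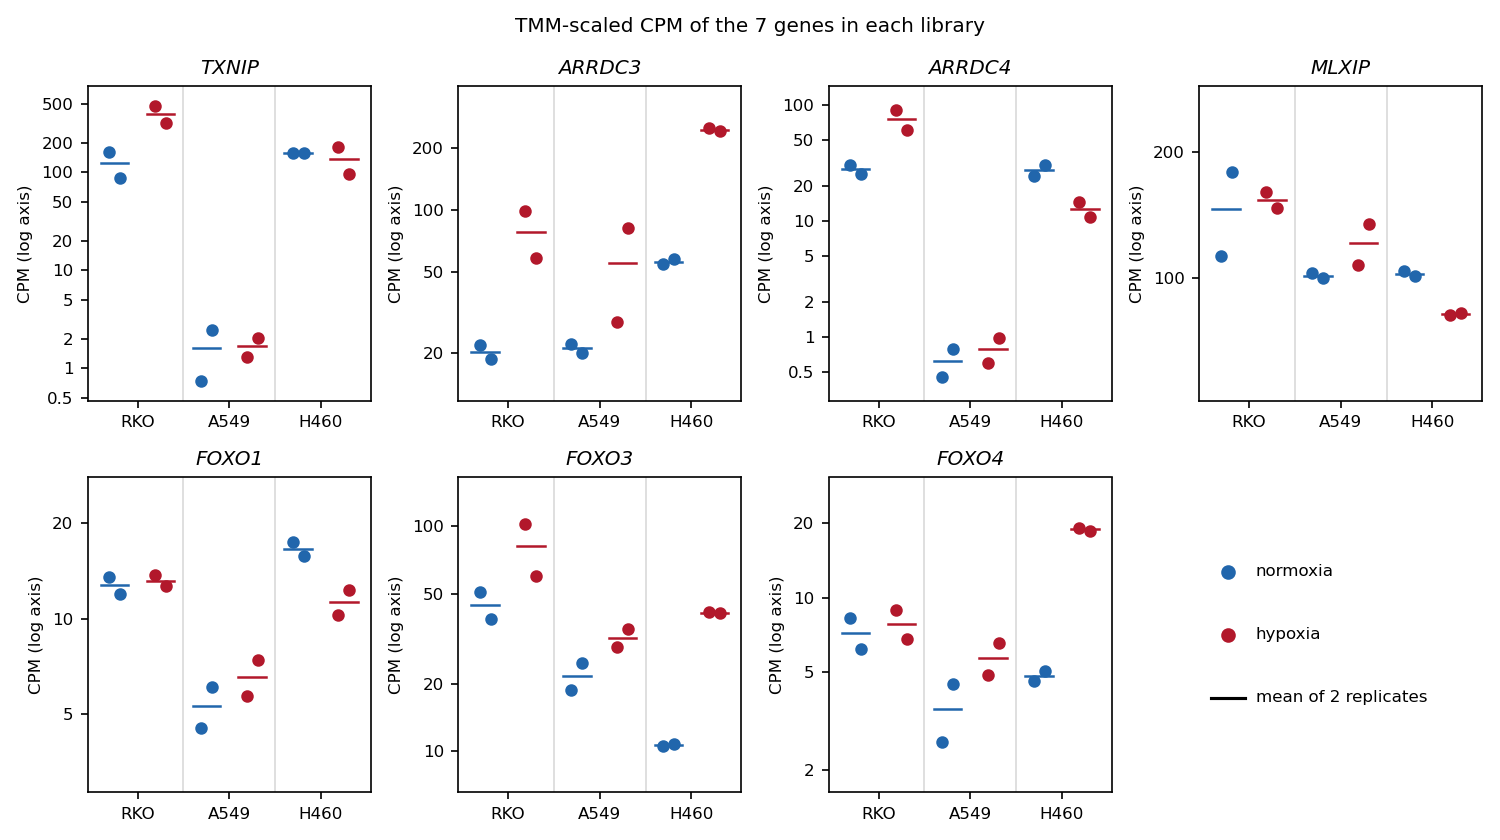
Each panel plots 1 gene: TMM-scaled CPM on a log axis (vertical) for the 12 libraries, grouped by line (horizontal), with normoxia in blue, hypoxia in red, points for single libraries and a bar for the mean of 2 replicates. TXNIP and ARRDC4 lie below 3 CPM in every A549 library, and ARRDC3, FOXO3 and FOXO4 are higher in hypoxia than in normoxia in both H460 replicates.

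ARRDC4, the alpha-arrestin closest to TXNIP in its known dependence on glucose, rose in hypoxic RKO cells and fell in hypoxic H460 cells. In RKO it had 30.5 and 25.3 CPM in normoxia and 90.8 and 60.3 CPM in hypoxia, with no overlap. The log2 fold change was 1.37 ± 0.21 (edgeR adjusted p = 0.000745). In H460 it had 24.5 and 30.4 CPM in normoxia and 14.5 and 10.9 CPM in hypoxia, again with no overlap but in the opposite order. The log2 fold change there was -1.14 ± 0.15 (edgeR adjusted p = 3.43e-05). In A549 it had 0.453 and 0.785 CPM in normoxia and 0.599 and 0.989 CPM in hypoxia, from 19 to 34 reads a library, and the log2 fold change of 0.33 ± 0.47 gave no call.

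ARRDC3, an adaptor known for beta-adrenergic receptor and integrin beta-4 turnover, was higher in hypoxia in all 3 lines by its estimates and was called in RKO and H460. In RKO it rose from 21.9 and 18.8 CPM to 98.0 and 58.1 CPM, a log2 fold change of 1.87 ± 0.23 (edgeR adjusted p = 0.000292). In H460 it rose from 54.2 and 57.4 CPM to 249.9 and 241 CPM, a log2 fold change of 2.12 ± 0.09 (edgeR adjusted p = 3.5e-09). The libraries of the 2 conditions were separate in both lines, and the H460 hypoxia replicates differed by no more than 1.04-fold.

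In A549, ARRDC3 had 22.3 and 19.99 CPM in normoxia and 28.4 and 81.8 CPM in hypoxia. Both hypoxia libraries lay above normoxia, but they differed from each other 2.88-fold. The log2 fold change of 1.36 ± 0.40 was not called (edgeR adjusted p = 0.154). With the replicate number as a block it was 1.18 (adjusted p = 0.000356) and called, and without A549 hypoxia replicate 1, the library with the lower hypoxia markers, it was 1.92 and called. Without A549 hypoxia replicate 2 it was 0.42 and not called, so its size rested on that library. DESeq2 (1.36), no filter on low counts (1.35) and the joint fit of the 12 libraries (1.38) called it as well.

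MLXIP, the glucose-sensing partner of MLX, was not called in any line. Its CPM in RKO was 113 and 179 in normoxia and 160 and 147 in hypoxia, so the normoxia replicates enclosed the hypoxia values, and the log2 fold change was 0.01 ± 0.20. In A549 it was 103 and 100.3 CPM in normoxia and 108 and 135 CPM in hypoxia (log2 fold change 0.24 ± 0.18). In H460 it was 104 and 101 CPM in normoxia and 81.8 and 82.5 CPM in hypoxia, a separate and lower pair. That H460 difference of -0.34 ± 0.08 had an edgeR adjusted p of 0.0031 but was smaller than the 1.5-fold minimum of a call.

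FOXO3, the FOXO member with the most reads in RKO and A549, rose in RKO and H460. In RKO it had 50.7 and 38.6 CPM in normoxia and 103 and 60.1 CPM in hypoxia, and the log2 fold change was 0.80 ± 0.23 (edgeR adjusted p = 0.0207). Without RKO hypoxia replicate 1 the value was 0.42 (adjusted p = 0.127) and the call was lost. In H460 it had 10.5 and 10.8 CPM in normoxia and 41.4 and 41.2 CPM in hypoxia, a log2 fold change of 1.93 ± 0.11 (edgeR adjusted p = 2.27e-08). In A549 it had 18.7 and 24.6 CPM in normoxia and 29.0 and 34.8 CPM in hypoxia, which did not overlap, and the log2 fold change of 0.54 ± 0.22 was not called (edgeR adjusted p = 0.262).

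FOXO3 has a close copy, FOXO3B, on chromosome 17 from 18569235 to 18576494, and reads that fit both places are uncertain. FOXO3B was not called in any line, with log2 fold changes of -0.33, -0.32 and -0.38 in RKO, A549 and H460, the last -0.74 and called lower with library-size scaling. The ratio of FOXO3 to FOXO3B counts was 1.27 and 1.26 in the H460 normoxia libraries and 6.29 and 6.30 in the hypoxia libraries, so the counted copies moved apart.

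FOXO4, whose gene is X-linked, rose in H460 and was not called elsewhere. In H460 it had 4.61 and 5.04 CPM in normoxia and 19.2 and 18.7 CPM in hypoxia, a log2 fold change of 1.95 ± 0.14 (edgeR adjusted p = 1.63e-07). In RKO it had 8.24 and 6.18 CPM in normoxia and 8.92 and 6.80 CPM in hypoxia, which overlapped, and the log2 fold change was 0.06 ± 0.26. In A549 it had 2.60 and 4.46 CPM in normoxia and 4.86 and 6.57 CPM in hypoxia, and the log2 fold change of 0.68 ± 0.34 was not called (edgeR adjusted p = 0.362). With the replicate number as a block that A549 value was 0.71 (adjusted p = 0.0548) and called.

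FOXO1, which drives hepatic glucose production and is the founding member of the group, was not called in any line. In RKO it had 13.6 and 11.9 CPM in normoxia and 13.7 and 12.6 CPM in hypoxia, and the log2 fold change was -0.02 ± 0.21. In A549 it had 4.55 and 6.11 CPM in normoxia and 5.70 and 7.42 CPM in hypoxia, also with overlap, and the log2 fold change was 0.28 ± 0.29. In H460 it had 17.4 and 15.8 CPM in normoxia and 10.3 and 12.3 CPM in hypoxia, and the lower hypoxia pair did not overlap with normoxia. The log2 fold change there was -0.57 ± 0.14 (edgeR adjusted p = 0.00286), just under the 1.5-fold minimum, and it was called lower without H460 normoxia replicate 2 (-0.67) and without H460 hypoxia replicate 2 (-0.69).

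**Figure D2:**
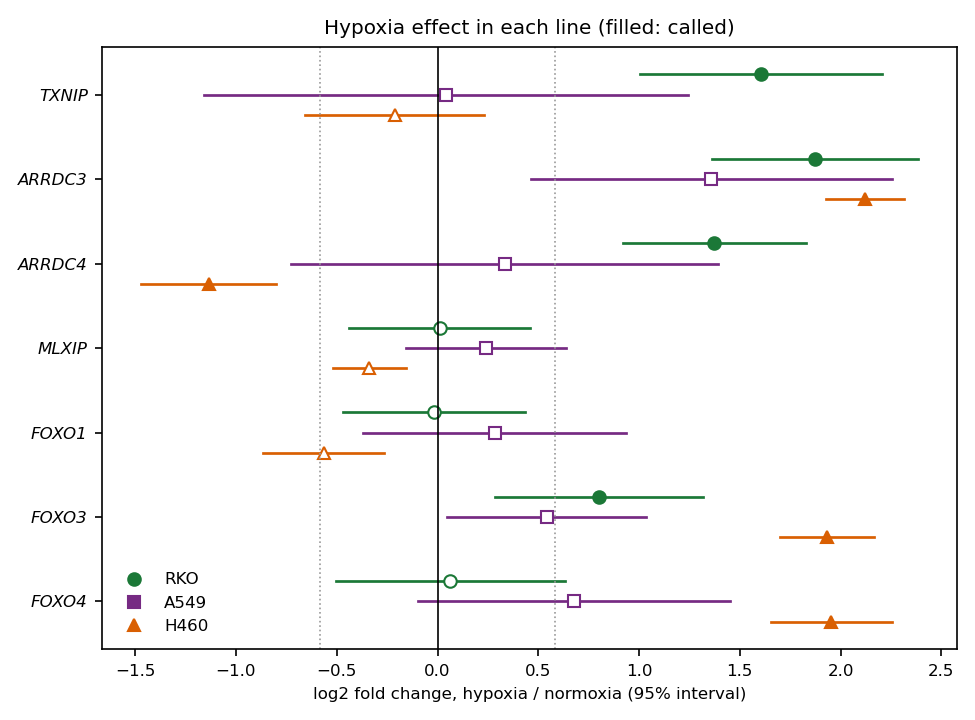
Log2 fold change of hypoxia over normoxia (horizontal) with its 95% interval for each gene (vertical) in RKO (circles), A549 (squares) and H460 (triangles), with filled symbols for calls and dotted lines at a 1.5-fold change. ARRDC4 is filled on opposite sides of 0 in RKO (1.37) and H460 (-1.14), and no A549 symbol is filled.

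A call required an edgeR adjusted p under 0.1 and a fold change over 1.5, the thresholds the study used. In RKO 4 of the 7 members were called higher, against 18.8% of the 12817 genes tested, and none was called lower, against 15.1%. In H460 3 members were called higher, against 24.6% of 14080 genes, and 1 was called lower, against 27.3%. In A549 none was called in either direction, against 2.22% higher and 0.456% lower of 14251 genes; 2 members, ARRDC3 and FOXO3, had an unadjusted p under 0.05 there, as did 2363 genes in all, and DESeq2 called ARRDC3 alone. All 7 members passed the filter on low counts in each line. For RKO, A549 and H460 the median log2 fold change of the 7 was 0.80, 0.33 and -0.21, beside 0.01, -0.01 and -0.04 over all tested genes. Each median of the 7 is the value of 1 gene: FOXO3 in RKO, the scarcely expressed ARRDC4 in A549 and TXNIP in H460. No shift of the members as a group is read from it. Scaling H460 by library size alone shifted the median of all genes by -0.35 relative to TMM and turned the split of 3467 higher and 3837 lower genes into 2075 and 5758. With that scaling the 3 higher members stayed called and ARRDC4, MLXIP and FOXO1 were called lower.

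The difference between lines was tested in a joint fit of the 12 libraries. The effect of hypoxia differed between lines at an edgeR adjusted p under 0.1 for 5 of the 7 members, TXNIP, ARRDC4, FOXO1, FOXO3 and FOXO4, against 48.8% of 15595 genes. TXNIP no longer passed without RKO normoxia replicate 2 or RKO hypoxia replicate 1 or with DESeq2, and FOXO1 no longer passed without any 1 of 7 libraries: RKO normoxia replicate 2, A549 normoxia replicate 1, A549 hypoxia replicate 2 or any H460 library. FOXO3 did not pass with limma on log2 RPKM. MLXIP passed as well without either RKO normoxia replicate, with library-size scaling and with limma, and ARRDC3 without A549 hypoxia replicate 2 and with no filter on low counts. ARRDC4 had the lowest adjusted p of the 7, 0.00044. Its effect in RKO was 2.55 ± 0.35 above that in H460 on the log2 scale (edgeR adjusted p = 0.000179) and its effect in A549 was 1.45 ± 0.46 above that in H460 (adjusted p = 0.0321). The latter was 1.11 without A549 normoxia replicate 1 and 1.07 without A549 hypoxia replicate 2, and lost its call in each case. For TXNIP the RKO effect was 1.86 ± 0.53 above that in H460 (edgeR adjusted p = 0.0163), while the difference of 1.62 ± 0.64 between RKO and A549 had an adjusted p of 0.133. With a replicate block the latter was 1.56 (adjusted p = 0.0216), and without A549 normoxia replicate 1 it was 2.25 (adjusted p = 0.0252), both past the test.

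The FOXO genes differed in the other direction. The H460 effect exceeded the RKO effect by 1.08 ± 0.32 for FOXO3 and by 1.85 ± 0.38 for FOXO4, written as RKO minus H460 values of -1.08 and -1.85 (edgeR adjusted p = 0.0209 and 0.00284). The A549 minus H460 values were -1.39 ± 0.33 for FOXO3 (adjusted p = 0.00655) and -1.28 ± 0.39 for FOXO4 (adjusted p = 0.0253). FOXO1 went the opposite way to them, with an A549 minus H460 value of 0.85 ± 0.30 (adjusted p = 0.0497). Of these, 3 rest on single libraries: FOXO3 between RKO and H460 was -0.86 (adjusted p = 0.103) without RKO normoxia replicate 1 and -0.37 (adjusted p = 0.331) with limma on log2 RPKM, FOXO4 between A549 and H460 was -0.84 (adjusted p = 0.125) without A549 normoxia replicate 2, and FOXO1 was between 0.65 and 0.89 and out of the call without any 1 of 5 libraries, A549 normoxia replicate 1, A549 hypoxia replicate 2, either H460 normoxia replicate or H460 hypoxia replicate 1.

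Of the 21 differences between pairs of lines, 8 passed: none for RKO against A549, where 14.6% of genes passed, 4 for RKO against H460, with 37.6% of genes, and 4 for A549 against H460, with 36%. With a replicate block 13 passed; the 5 added were TXNIP and ARRDC4 between RKO and A549 (1.56 and 1.05), FOXO1 between RKO and H460 (0.60), and ARRDC3 and MLXIP between A549 and H460 (-0.94 and 0.57). Leaving out 1 library added others: ARRDC3 in A549 against RKO and H460 without A549 hypoxia replicate 2 (1.52 for RKO minus A549, -1.71 for A549 minus H460), ARRDC4 for RKO minus A549 without RKO hypoxia replicate 2, A549 normoxia replicate 1 or A549 hypoxia replicate 2 (1.37, 1.44 and 1.48), MLXIP for RKO minus H460 without RKO normoxia replicate 2 (0.77), and MLXIP for A549 minus H460 without either RKO normoxia replicate (0.59) or A549 hypoxia replicate 1 (0.73). Other settings added calls too. TXNIP for RKO minus A549 passed with no filter on low counts (1.63), library-size scaling (1.75) and limma (1.70), and ARRDC4 with DESeq2 (1.05), no filter (1.11) and limma (1.28). For RKO minus H460, FOXO1 and MLXIP passed with library-size scaling (0.98 and 0.78) and limma (0.68 and 0.75). For A549 minus H460, MLXIP passed with DESeq2 (0.58), no filter (0.58), library-size scaling (0.84) and limma (0.76), and ARRDC3 with no filter (-0.77). For ARRDC3 the overall test of a difference between lines had an edgeR adjusted p of 0.398, and the 95% interval of RKO minus H460 ran from -1.23 to 0.84, so a 2-fold larger effect in H460 lies within it. The mean effect over the 3 lines was called for ARRDC3 (1.82 ± 0.20), FOXO3 (1.12 ± 0.13) and FOXO4 (0.93 ± 0.16, or 0.53 and under the 1.5-fold minimum with limma), 3 of 7 beside 14.8% of genes called higher and 11.5% lower. The FOXO4 mean is not a rise shared by the lines: the line fits gave 1.95 in H460, 0.06 in RKO and an uncalled 0.68 in A549. For TXNIP the mean effect was 0.51 ± 0.25 (edgeR adjusted p = 0.102), and it was called, at 0.60 to 0.88, without any 1 of RKO normoxia replicate 1, RKO hypoxia replicate 2, A549 normoxia replicate 2, A549 hypoxia replicate 1 or H460 hypoxia replicate 2.

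Starting levels differed between lines about as often for the members, in 15 of 21 normoxia comparisons, as for all genes (65.5% to 74% by pair). In normoxia TXNIP was 6.30 ± 0.49 log2 units higher in RKO than in A549 (edgeR adjusted p = 4.04e-08), a 78.6-fold difference, and 6.62 ± 0.50 lower in A549 than in H460 (adjusted p = 4.37e-08). ARRDC4 showed the same order, with 5.49 ± 0.33 between RKO and A549 and -5.47 ± 0.33 between A549 and H460. Between RKO and H460 neither differed detectably, with -0.33 ± 0.37 for TXNIP and 0.02 ± 0.24 for ARRDC4; with a replicate block the TXNIP value was -0.41 (adjusted p = 0.0885) and passed. A549 thus had the low level of TXNIP and ARRDC4 in both conditions, and in hypoxia TXNIP was 7.92 ± 0.52 higher in RKO than in A549. In hypoxia 16 of the 21 differences passed, where 72.7% of genes passed for RKO against A549, 76.9% for RKO against H460 and 75% for A549 against H460. That count too lies near the shares of all genes.

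ARRDC3 in normoxia was lower in RKO and A549 than in H460, by -1.45 ± 0.35 and -1.40 ± 0.35, and RKO and A549 differed by -0.05 ± 0.35. FOXO3 in normoxia was highest in RKO, then A549, then H460, with differences of 1.04 ± 0.23 and 1.02 ± 0.23 between neighbours, both past the test. After hypoxia its A549 and H460 levels no longer differed past the test (-0.38 ± 0.23). FOXO1 in normoxia was lower in A549 than in RKO (1.26 ± 0.21 for RKO minus A549) and than in H460 (-1.64 ± 0.22 for A549 minus H460). MLXIP in normoxia was 0.53 ± 0.18 higher in RKO than in A549 and 0.51 ± 0.18 higher than in H460, and these were 0.15 and 0.13 without RKO normoxia replicate 2 and lost the call, the second also without H460 normoxia replicate 2 (0.48). FOXO4 in normoxia was 1.03 ± 0.28 higher in RKO than in A549 and 0.58 ± 0.27 higher than in H460, the latter no longer past the test, at 0.34 to 0.63, without RKO normoxia replicate 1 or any 1 of the H460 libraries. A replicate block added FOXO1 for RKO minus H460 (-0.38) and FOXO4 for A549 minus H460 (-0.50), the latter also passing without A549 normoxia replicate 2 (-0.89). FOXO1 for RKO minus H460 also passed without either A549 normoxia replicate (-0.38), with DESeq2 (-0.40) and with limma (-0.25), and TXNIP for RKO minus H460 with no filter on low counts (-0.32). Of the 21 normoxia differences 15 passed, beside 72.6% of genes for RKO against A549, 74% for RKO against H460 and 65.5% for A549 against H460. The count lies near these shares, and no result about the members as a set is read from it.

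Levels of different genes were compared per length, as RPKM (reads per kilobase of exon, scaled to the summed counts of the library). TXNIP had the highest mean of the 7 in RKO, 44.9 ± 17.6 RPKM in normoxia and 144.7 ± 33.2 RPKM in hypoxia (SD, n = 2), and in H460 normoxia, 55.5 ± 1.15 RPKM. In H460 hypoxia ARRDC3 came first at 47.6 ± 0.579 RPKM and TXNIP followed at 37.3 ± 14.9 RPKM, with 1 TXNIP library, at 47.9 RPKM, level with ARRDC3. In A549 MLXIP led with 12.7 RPKM in normoxia and 14.1 RPKM in hypoxia, ARRDC3 came next with 5.37 and 12.9 RPKM, and TXNIP was sixth with 0.573 and 0.551 RPKM. ARRDC4 was last in A549, with 0.161 and 0.191 RPKM.

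The ratio of TXNIP to ARRDC4 RPKM was 7.32 and 4.82 in RKO normoxia and 7.25 and 7.29 in RKO hypoxia. In H460 it was 8.81 and 7.16 in normoxia and 17.1 and 12.1 in hypoxia, so the pair moved apart there as ARRDC4 fell. Among the FOXO genes, FOXO3 made up 58.3% and 56.6% of the summed FOXO1, FOXO3 and FOXO4 RPKM in RKO normoxia and 72.9% and 65.3% in RKO hypoxia. In H460 its share was 24.1% and 25.3% in normoxia and 42.2% and 41.4% in hypoxia. In A549 the share stayed between 57.6% and 61.3% in all 4 libraries. The summed FOXO RPKM in H460 was 5.98 and 5.99 in normoxia and 10.2 and 10.9 in hypoxia.

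**Figure D3:**
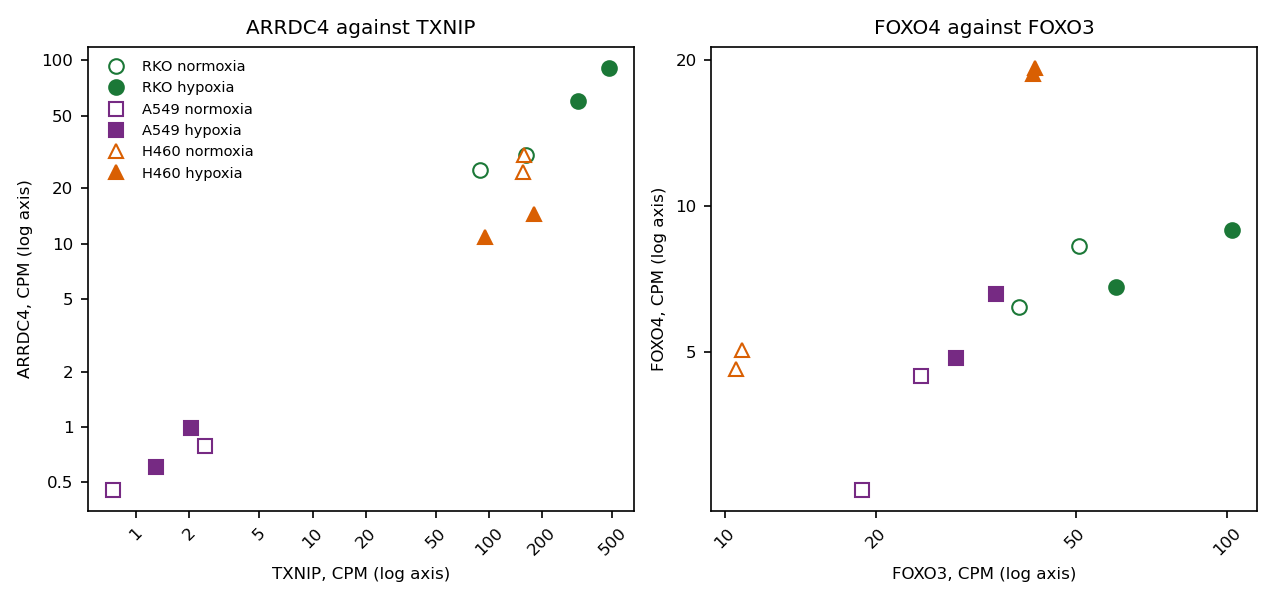
ARRDC4 against TXNIP (left) and FOXO4 against FOXO3 (right), in TMM-scaled CPM on log axes, with a symbol per library, its shape and colour giving the line and its filling the condition (open for normoxia, filled for hypoxia). The 4 A549 libraries form a group apart in the left panel, at most 2.45 CPM of TXNIP, and the 2 H460 hypoxia libraries lie above all others in FOXO4, at 19.2 and 18.7 CPM.

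Across the 12 libraries, log2 CPM of TXNIP and ARRDC4 had a Pearson r of 0.98, and 0.84 after each line was centred on its own mean. The low A549 libraries, which share their line, enter the first value, and both are descriptions of 12 libraries in 3 clusters. After centring, FOXO3 and FOXO4 had r = 0.93, ARRDC3 and FOXO3 r = 0.90 and TXNIP and FOXO3 r = 0.34. Among 12423 genes with a mean of at least 100 counts, the 5 most like TXNIP over the 12 libraries were ZNF529, C1orf21, ARRDC4, ZNF136 and ZNF701, with r from 0.98 to 0.99. After centring the 5 most like it had r from 0.92 to 0.94, LINC01270, DUSP19, KLHL12 and ZC2HC1A among them, and included none of the first 5. The genes most like ARRDC4 over the 12 libraries were B4GALT6, ATP8A1, TXNIP, ZNF204P and ZNF611, and those most like FOXO3 were RAB8B, TBC1D23, PEX13, MKRN1 and GPR160.

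MLXIPL, the glucose-responsive relative of MLXIP known from liver, rose in RKO and fell in H460. In RKO it went from 2.02 and 1.93 CPM to 12.6 and 11.4 CPM, a log2 fold change of 2.54 ± 0.25 (edgeR adjusted p = 0.000115). In H460 MLXIPL fell from 15.6 and 19.4 CPM to 10.7 and 11.7 CPM (-0.67 ± 0.14, edgeR adjusted p = 0.00111), a value of -0.54 and not called without H460 normoxia replicate 2. In A549 it had a log2 fold change of -0.79 ± 0.28 that was not called, and it was called lower with a replicate block (-0.82, adjusted p = 0.00329), in the joint fit (-0.78) and without A549 hypoxia replicate 2 (-1.17). The RKO effect on MLXIPL exceeded the H460 effect by 3.25 ± 0.35 (edgeR adjusted p = 3.89e-05) and the A549 effect by 3.38 ± 0.35 (adjusted p = 0.000192). RKO was thus the line in which TXNIP, ARRDC4 and MLXIPL were each called higher, and H460 the line in which ARRDC4 and MLXIPL were called lower. In A549 the 2 genes did not go together, with estimates of -0.79 for MLXIPL and 0.33 for ARRDC4, neither called. A link between them was not tested. MLX, the shared partner, was not called in any line, with log2 fold changes of 0.34, -0.17 and 0.55 in RKO, A549 and H460, the last called higher without H460 normoxia replicate 1 (0.63) or H460 hypoxia replicate 2 (0.62).

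Of the remaining alpha-arrestins, ARRDC1 and ARRDC2 were not called in any line, with log2 fold changes between -0.37 and 0.41, and ARRDC5 had no reads in any library. FOXO6, the remaining FOXO gene, rose in RKO from 1.41 and 1.33 CPM to 4.19 and 3.997 CPM (1.52 ± 0.31, edgeR adjusted p = 0.00336). In A549 FOXO6 had a log2 fold change of 0.91 ± 0.42 without a call, and in H460 it was below the filter, at no more than 11 reads a library.

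Lists of genes around the members were written from general knowledge, but with earlier results of these data known. Their counts are therefore descriptions. Of 12 genes known to respond to glucose through MLXIPL or MLXIP, mostly of lipid synthesis, 8 were tested in RKO, with 2 called higher and 3 lower, and 9 in H460, with 2 higher and 5 lower. None of 7 was called in A549, where 2.22% of all genes were called higher and 0.456% lower. The share of all genes with a higher call was 18.8% for RKO and 24.6% for H460, and with a lower call 15.1% and 27.3%; the higher counts of this list lie near these shares. Its higher count was 1 without either RKO normoxia replicate in RKO, and 1 with library-size scaling or limma in H460. The median log2 fold change of this list was -0.13, -0.07 and -0.70 in RKO, A549 and H460. KLF10, a zinc finger gene of this list, was called higher in H460 (0.81 ± 0.09, or 0.46 and not called with library-size scaling). In RKO it had 0.55 ± 0.16, not called, or 0.69 and 0.67 and called without RKO normoxia replicate 1 or RKO hypoxia replicate 2, and 0.64, 0.62 and 0.61 to 0.64 and called with library-size scaling, the joint fit and limma. RGS16, a regulator of G protein signalling, was called lower in RKO (-1.08 ± 0.25) and H460 (-0.70 ± 0.10).

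Of the 12 genes of the thioredoxin system, to which TXNIP binds, none was called higher in any line. Higher calls over all genes made up 18.8% in RKO, 2.22% in A549 and 24.6% in H460. RKO had 3 of 12 called lower, A549 1 of 11 and H460 5 of 12, against 15.1%, 0.456% and 27.3% of all genes. The RKO count was 1 without RKO normoxia replicate 1 and with limma, and 5 without RKO normoxia replicate 2. The A549 count was 2 without A549 hypoxia replicate 1 and with DESeq2, no filter, the joint fit or a replicate block, and 0 without A549 hypoxia replicate 2 and with limma without a filter. TXN, thioredoxin itself, fell in RKO (-0.72 ± 0.16) and H460 (-1.02 ± 0.09) and was not called in A549 (-0.24 ± 0.19). TXNRD1, the reductase, fell in H460 (-1.15 ± 0.10) and had -0.10 ± 0.21 in RKO and -0.73 ± 0.21 in A549, where it was called lower with a replicate block (-0.74, adjusted p = 0.000687), without A549 hypoxia replicate 1 (-0.99), and with DESeq2 (-0.73), no filter (-0.74) and the joint fit (-0.72). The medians of the list were -0.37, -0.11 and -0.53. With library-size scaling or limma, 8 of 12 were called lower in H460.

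Ubiquitin ligases of the NEDD4 family, which alpha-arrestins recruit, gave no call among 8 genes in RKO and 9 in A549. Leaving out any 1 RKO library gave 1 lower call in RKO, and 1 higher call besides without RKO normoxia replicate 1 or RKO hypoxia replicate 2. In A549 there were 1 higher and 2 lower calls with a replicate block, 1 and 1 without A549 hypoxia replicate 1, 1 lower with DESeq2 and 1 higher in the joint fit. In H460 6 of 9 were called higher and 1 lower, against 24.6% and 27.3% of all genes, with library-size scaling 4 higher and 2 lower, and with limma 4 or 2 higher and 1 lower. NEDD4L, which regulates sodium channels, rose in H460 (1.76 ± 0.09) and had -0.12 ± 0.20 in A549. In RKO it had 0.48 ± 0.17, not called, or 0.66 and 0.63 and called without RKO normoxia replicate 1 or RKO hypoxia replicate 2. Of 5 membrane proteins described as cargo of these arrestins, SLC2A1, the GLUT1 glucose transporter and a textbook hypoxia gene, was called higher in all 3 lines (1.73 ± 0.15, 1.78 ± 0.22 and 1.12 ± 0.16). ITGB4, the integrin subunit linked to ARRDC3, was called higher in A549 (1.74 ± 0.38, or 1.64 and not called with library-size scaling) and H460 (2.85 ± 0.12) and had a log2 fold change of 0.00 ± 0.42 in RKO. In each line 1, 2 and 2 of 4, 5 and 3 tested cargo genes were called higher and none lower. Higher calls over all genes, with the lines in the same order, made up 18.8%, 2.22% and 24.6%. Lower calls made up 15.1%, 0.456% and 27.3%. SLC2A1 is among the cargo calls of every line, and with so few genes tested no result about cargo is read from these counts. Among 7 AMPK subunit genes, whose kinase phosphorylates TXNIP and FOXO3, 1 was called higher and 1 lower of 5 tested in RKO, none of 6 in A549, and 2 higher of 6 in H460, where library-size scaling and limma gave 2 higher and 2 lower; the RKO lower call was lost without RKO hypoxia replicate 2. These AMPK shares are near those of all genes (18.8% higher and 15.1% lower in RKO, 2.22% and 0.456% in A549, 24.6% higher in H460) and no result about the list is read from them.

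Genes listed as FOXO targets gave 15 higher calls of 23 tested in RKO and 21 of 26 in H460, while A549 had 4 of 26, against 18.8%, 24.6% and 2.22% of all genes. Lower calls numbered 1 in RKO, 1 in A549 and 3 in H460, the A549 count being 2 with a replicate block and without A549 normoxia replicate 1 or A549 hypoxia replicate 1, and the H460 count 1 with DESeq2. The shares of all genes with a lower call were 15.1% in RKO, 0.456% in A549 and 27.3% in H460. The median log2 fold change of the listed targets was 0.92, 0.29 and 1.54, beside 0.01, -0.01 and -0.04 over all genes. In A549 the count of higher genes was 9 with a replicate block, 8 without A549 hypoxia replicate 1, 2 with library-size scaling and 0 or 1 with limma on log2 RPKM. CCNG2, a cyclin that slows the cell cycle, was called higher in all 3 lines, at 2.75 ± 0.25, 2.11 ± 0.46 and 3.51 ± 0.13, the A549 value being 2.01 and not called with library-size scaling. IRS2, an adaptor of the insulin receptor, was called in all 3 as well, at 1.31 ± 0.21, 1.19 ± 0.29 and 1.17 ± 0.10, and lost its A549 call with library-size scaling (1.10), without A549 hypoxia replicate 2 (0.71) and without A549 normoxia replicate 1 (1.03). MXI1, a MYC antagonist that is also a known target of hypoxia-inducible factors, had 0.92 ± 0.28, 2.06 ± 0.36 and 3.32 ± 0.11, the RKO value being 0.51 and not called without RKO hypoxia replicate 1. With limma on log2 RPKM the A549 calls of CCNG2, IRS2, MXI1 and ITGB4 were lost at either pseudocount.

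Other FOXO targets differed by line. PIK3IP1, an inhibitor of PI3 kinase, rose in RKO (2.86 ± 0.32). In H460 it was called at 0.66 ± 0.32 but not without H460 normoxia replicate 2 (0.25), without H460 hypoxia replicate 1 (0.54) or with library-size scaling (0.30), DESeq2 (0.68), the joint fit (0.67) or limma (0.28 and 0.11). In A549 it had 0.74 ± 0.35, called without A549 hypoxia replicate 1 (1.06) and, at 0.74, with a replicate block. SESN3, a sestrin that restrains mTORC1, rose in RKO (2.90 ± 0.38) and had 0.44 ± 0.39 in A549 and 0.49 ± 0.09 in H460 without a call. CDKN1B, the cell cycle inhibitor p27, rose in H460 (1.64 ± 0.09) and had 0.17 ± 0.22 in A549 and 0.42 ± 0.21 in RKO, the last called without RKO hypoxia replicate 2 (0.63). IGFBP1, an insulin-like growth factor binding protein also known as a hypoxia gene, was called higher in A549 (1.99 ± 0.34) and H460 (2.57 ± 0.23) and was not tested in RKO.

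**Figure D4:**
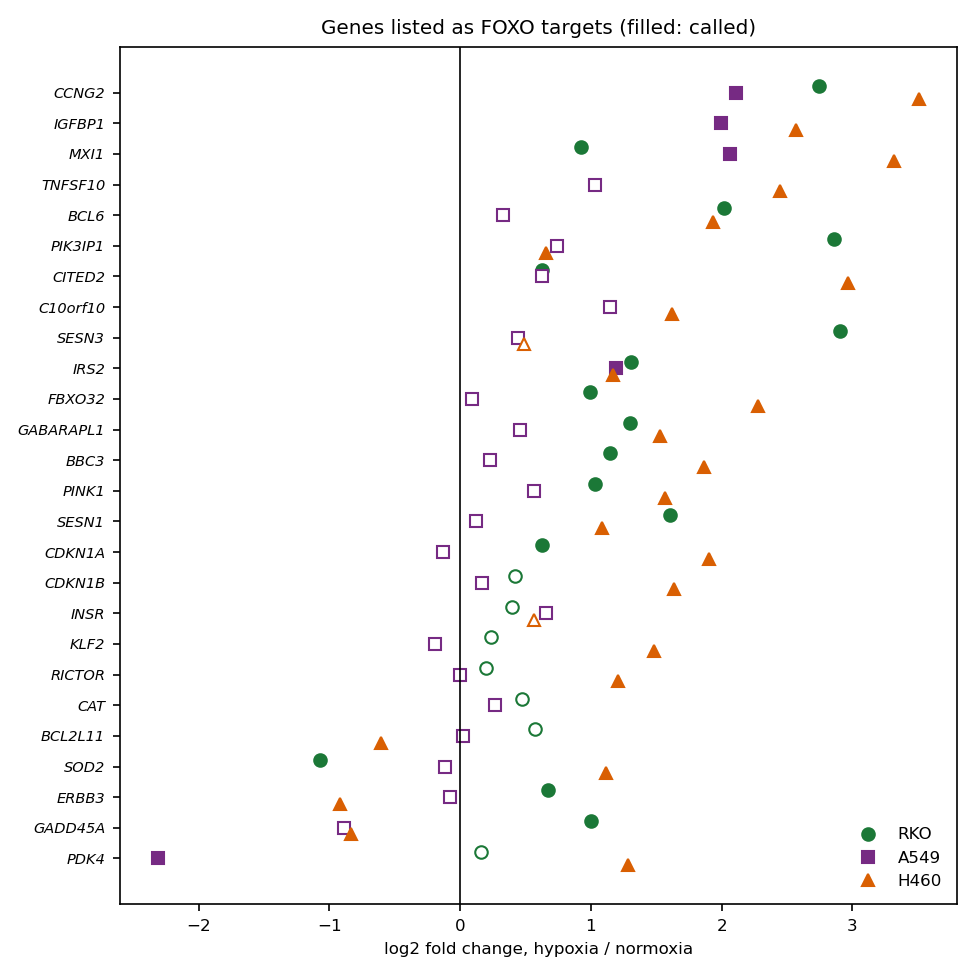
Log2 fold change of hypoxia over normoxia (horizontal) for 26 listed FOXO target genes tested in at least 1 line (vertical, ordered by mean), in RKO (circles), A549 (squares) and H460 (triangles). Filled symbols are calls, and a fixed upper limit was set on the fold changes drawn. CCNG2 is at the top, with all 3 symbols filled at 2.75, 2.11 and 3.51, and most H460 triangles lie to the right of 0.

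Of 24 regulators of FOXO proteins, among them kinases, 14-3-3 proteins, acetyltransferases and ubiquitin enzymes, 23 were tested in each line. In RKO 2 were called higher and 4 lower, in A549 none, and in H460 7 higher and 2 lower, which became 2 higher and 4 lower with library-size scaling, 1 or 2 higher with limma, and 4 higher without H460 normoxia replicate 1. The RKO counts lie near the shares of all genes (18.8% and 15.1%); they were 4 higher and 2 lower with library-size scaling and in the joint fit, 3 and 2 without RKO normoxia replicate 1 and with limma, and 4 and 3 without RKO hypoxia replicate 2. In H460 the shares of all genes were 24.6% and 27.3%, and in A549 they were 2.22% and 0.456%. In A549 1 was called higher with a replicate block and without A549 hypoxia replicate 1. SGK1, a kinase that inactivates FOXO3, was called higher in H460 (0.77 ± 0.13), but not without H460 normoxia replicate 1 (0.53) or with library-size scaling (0.42) or limma (0.44 and 0.42), and had 0.29 ± 0.25 and 0.33 ± 0.23 in RKO and A549. FOXO activity is set mainly by phosphorylation and location of the proteins, which these RNA counts do not measure.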

How the data were processed

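Poly(A)+ RNA of 12 cultures was sequenced. According to the study's methods and the processing notes, the authors aligned single-end reads with TopHat2 2.0.13 to GRCh37/hg19, dropped alignments of low mapping quality, marked duplicates with Picard 1.129 and counted exon reads by strand with HTSeq 0.6.1. The deposited counts were the input here. The deposited RPKM values equalled the count per kilobase, scaled to the summed counts of the library, in 100% of values within 0.1%, and served for levels between genes and for limma.

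Fits used R 4.3.3. For each line, the 4 libraries went into a quasi-likelihood test of edgeR 4.0.16 (TMM scaling; a gene needed more than 0.5 CPM in 2 or more of them), and Benjamini-Hochberg adjustment ran over all tested genes. Calls required an adjusted p under 0.1 and a fold change over 1.5. Differences between lines came from 1 joint fit and used the adjusted p alone. The scripts were tested on simulated data. Log2 CPM for likeness used a prior count of 2. Intervals are 95%. With 2 replicates per group the median SE of a log2 fold change was 0.184, 0.223 and 0.114 in RKO, A549 and H460.

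Nothing in the labels ties equal replicate numbers to a shared batch or day. Deviations of such libraries from group means correlated at r = 0.261, 0.367 and 0.109 over 12424 genes in RKO, A549 and H460. The main fits left the libraries unpaired, and a block of equal replicate numbers was fitted as an alternative. In A549 that block gave 1189 higher and 723 lower calls, beside 316 and 65 without it. Replicates differed by more than sampling noise in every group (chi-square per degree of freedom from 10.1 to 75.9). Alternatives were DESeq2 1.42.0, limma 3.58.1 (log2 RPKM, pseudocount 0.1 or 1), other scalings, filters and thresholds, and leaving out each library. The named genes were the members, their closest family members, the genes most like TXNIP, ARRDC4 and FOXO3, a set of pathway genes, and any listed gene called in the same direction in every line testing it. Members and lists were chosen with earlier results of these data known. Results of 2 genes are not reported here.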

Additional observations from a re-analysis of the deposited data

Results flagged for a closer look

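Differences between lines in the effect of hypoxia, 8 of 21 examined, passed the test of the difference itself (edgeR joint fit, adjusted p under 0.1). Of all genes, 37.6% passed for RKO against H460, 36% for A549 against H460 and 14.6% for RKO against A549. Between RKO and H460 the 8 included TXNIP (1.86), ARRDC4 (2.55), FOXO3 (-1.08, or -0.37 and not past the test with limma on log2 RPKM) and FOXO4 (-1.85), in log2 units of RKO minus H460. The FOXO3 value was -0.86 and out of the call without RKO normoxia replicate 1. Between A549 and H460 they were ARRDC4 (1.45), FOXO1 (0.85), FOXO3 (-1.39) and FOXO4 (-1.28), as A549 minus H460. Leaving out single libraries took ARRDC4 (1.11 and 1.07), FOXO1 (0.65 to 0.89) and FOXO4 (-0.84) out of the call. Line and growth medium cannot be told apart in any of the 8 differences.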

How the results depend on the processing

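All RKO calls of the members kept their direction, and the count of 4 higher members in RKO and of 3 in H460 was 3 or 4 and 3 in every alternative run. Counts of members and of pairs that moved by more than 1.5 times were these. In A549 (0 higher) DESeq2, no filter and the joint fit each gave 1, the replicate block 2, and leaving out 1 library 0 to 1. In H460 (1 lower) scaling by library size alone and no minimum fold change gave 3, limma on log2 RPKM 4 (TXNIP, ARRDC4, MLXIP and FOXO1) with pseudocounts of 0.1 and 1 and 3 with pseudocount 1 and no filter, and leaving out 1 library 1 to 2. Of the differences between pairs of lines (8) 13 passed with the replicate block. Of the 5 genes most like TXNIP, 0 remained after centring within line. The replicate block changed no other call of a member than those given in the report. Counts over the gene lists moved by more than 1.5 times for 111 combinations of list, line, direction and setting, thresholds on the fold change included, and the report gives most of those from single libraries, scalings and tools beside each list. The cause of these moves was not tested.

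The sign turned for 23 values, none of them called in the fits reported. In RKO, ITGB4 was 0.0077 with DESeq2, 0.0012 with RLE factors, 0.087 with library size only, 0.052 in the joint fit, and 0.041 and 0.0098 with limma at pseudocounts of 0.1 and 1 (0.0098 also without the filter). FOXO1 in RKO was 0.068, 0.045, 0.066 and 0.048 with library size only, the joint fit and limma at pseudocounts of 0.1 and 1, and TXNRD1 0.024 with limma. TXNIP in A549 was -0.058 and ARRDC2 in H460 -0.079 with library size only, and ARRDC2 -0.078 and -0.077 with limma. ARRDC3 for RKO minus H460 was 0.18 with library size only and 0.035 with limma. The normoxia A549 minus H460 value of MLXIP was 0.0038, 0.0056 and 0.0035 with library size only, no filter and limma, and its mean effect was -0.15, -0.0017 and -0.12.

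Leaving out 1 library at a time gave these ranges. In RKO they were -0.28 to 0.38 (MLXIP), -0.11 to 0.080 (FOXO1), -0.13 to 0.29 (FOXO4), -0.40 to 0.28 (TXNRD1) and -0.41 to 0.38 (ITGB4). In A549 they were -0.58 to 1.14 (TXNIP), -0.050 to 0.77 (ARRDC4), -0.42 to 0.038 (KLF10), -0.30 to 0.077 (NEDD4L) and -0.075 to 0.37 (CDKN1B). TXNIP in H460 ran from -0.71 to 0.20. Differences in effect ran from -0.38 to 1.34 (TXNIP, A549 minus H460), -0.012 to 1.52 (ARRDC3, RKO minus A549), -0.62 to 0.15 (ARRDC3, RKO minus H460), -0.48 to 0.19 (MLXIP, RKO minus A549) and -0.13 to 0.65 (FOXO3, RKO minus A549). Normoxia differences ran from -0.13 to 0.18 (ARRDC4) and -0.84 to 0.034 (TXNIP) for RKO minus H460, -0.18 to 0.047 (ARRDC3, RKO minus A549) and -0.044 to 0.0037 (MLXIP, A549 minus H460). Mean effects ran from -0.093 to 0.13 (MLXIP) and -0.14 to 0.0058 (FOXO1).

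With 2 replicates a group, changes of TXNIP and ARRDC4 in A549, on 19 to 100 reads a library, carry SEs of 0.53 and 0.47.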
